A study of Mus musculus with 6 samples.

Results

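The 78 genes described here are named as proteins of the mitochondrial ribosome. They are the rows of the gene count table whose GENCODE symbol starts with Mrpl or Mrps and a number, without the pseudogenes marked -ps. The rule picked 78 of 51912 rows, of which 49 carry Mrpl symbols (large subunit) and 29 carry Mrps symbols (small subunit). Symbol and place differ for Mrps18a and Mrps30, which lie in the large subunit, and for Mrps36, which is not in the ribosome. Subunits are by symbol below unless the structure is named. All 78 are annotated as protein coding, all had counts above 0 in every library, and all 78 passed the filter on low counts that kept 14889 genes. The cells were R1 mouse embryonic stem cells, an established line, grown in 2iLIF and then moved to N2B27 with FGF2 at 100 ng/ml. The 2 groups differ only in the length of that treatment, 24 h or 48 h, with 3 replicates each. 2iLIF is a medium with LIF and a pair of kinase inhibitors that holds embryonic stem cells in a naive state, and N2B27 with FGF2 lets them leave it. Cells kept in 2iLIF, or moved to N2B27 without FGF2, were not analysed here, so medium, FGF2 and time in culture cannot be told apart. The labels number the replicates without saying whether they were separate cultures, so each p-value weighs a difference only against the spread between these libraries.

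The mitochondrial ribosome translates the few messenger RNAs of the mitochondrial genome, all of which code for subunits of the oxidative phosphorylation complexes. Its ribosomal RNAs are made inside the organelle, while all of its proteins are encoded in the nucleus, made in the cytosol and imported. Compared with the bacterial ribosome it has less RNA and many added proteins, so that part of its proteins have a bacterial counterpart and part are found in mitochondria alone.

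Library totals ran from 19574969 to 23133148 estimated counts, and no library stood apart in depth. All 7 markers of the labelled cell type were detected and all 7 changed between the time points, 2 upward and 5 downward. Pou5f1 stood at 1111 ± 1.99 CPM at 24 h and 1058 ± 15.2 CPM at 48 h (mean ± SD, n = 3; CPM is the count scaled by the library's TMM-corrected total). Nanog fell from 695 ± 24.6 to 174 ± 6.47 CPM, while Utf1 rose from 202 ± 5.98 to 305 ± 6.52 CPM and Sall4 from 302 ± 1.99 to 352 ± 7.89 CPM. Sox2, Zfp42 and Esrrb fell as well. Summed over all 7, the level went from 4316 ± 52.9 to 2901 ± 60.8 CPM. Summed levels of the 7 fibroblast feeder markers ran from 2.73 to 4.24 CPM at 24 h and from 2.03 to 2.62 CPM at 48 h. Of the 3 that could be tested, Col1a1 fell from 1.03 ± 0.235 to 0.304 ± 0.114 CPM and Pdgfrb from 2.06 ± 0.580 to 0.593 ± 0.0418 CPM, while Dcn rose from 0 counts in every library at 24 h to 23, 25 and 32 counts at 48 h (1.21 ± 0.202 CPM). Lum and Postn were at 0 in every library. The 5 primitive endoderm markers summed to between 6.16 and 7.81 CPM at 24 h and between 3.38 and 3.56 CPM at 48 h, and the 4 trophoblast markers stayed under 1 CPM in sum. The part of these differences in the results below was not tested. In bulk libraries, fewer cells of a type and less RNA per cell cannot be told apart.

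Promoter windows of 4 members are shown because these genes changed between the time points, 1 in each direction in each subunit, and hold matches to motifs of factors known for nuclear genes of mitochondria. Each window runs from 250 bases before to 50 bases after an annotated start, in RefSeq's GRCm38.p6, and capitals mark the motif matches. Mrpl17 (chr7:105811038-105811337, minus strand) and Mrps27 (chr13:99344536-99344835, plus strand) were higher at 48 h. Mrpl2 (chr17:46645987-46646286, plus strand, the most downstream of its 3 nearly coincident starts) and Mrps26 (chr2:130563507-130563806, plus strand) were lower.
Mrpl17: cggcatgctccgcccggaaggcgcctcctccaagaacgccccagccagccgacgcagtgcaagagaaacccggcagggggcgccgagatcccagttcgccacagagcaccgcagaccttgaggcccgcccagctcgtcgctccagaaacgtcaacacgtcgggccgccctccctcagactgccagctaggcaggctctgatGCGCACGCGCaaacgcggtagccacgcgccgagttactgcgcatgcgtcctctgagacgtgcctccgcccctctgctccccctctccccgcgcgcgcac
Mrpl2: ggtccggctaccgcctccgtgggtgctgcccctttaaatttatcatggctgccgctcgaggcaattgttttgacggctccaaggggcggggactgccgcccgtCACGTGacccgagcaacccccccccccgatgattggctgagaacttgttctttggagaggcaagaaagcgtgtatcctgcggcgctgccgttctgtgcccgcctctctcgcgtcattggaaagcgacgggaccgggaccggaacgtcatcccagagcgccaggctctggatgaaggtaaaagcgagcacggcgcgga
Mrps27: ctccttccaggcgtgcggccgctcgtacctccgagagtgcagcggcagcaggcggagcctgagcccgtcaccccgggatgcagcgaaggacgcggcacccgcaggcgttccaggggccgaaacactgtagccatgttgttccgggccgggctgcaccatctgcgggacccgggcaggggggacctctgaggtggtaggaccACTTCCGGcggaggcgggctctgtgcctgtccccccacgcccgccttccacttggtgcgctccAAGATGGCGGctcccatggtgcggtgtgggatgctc
Mrps26: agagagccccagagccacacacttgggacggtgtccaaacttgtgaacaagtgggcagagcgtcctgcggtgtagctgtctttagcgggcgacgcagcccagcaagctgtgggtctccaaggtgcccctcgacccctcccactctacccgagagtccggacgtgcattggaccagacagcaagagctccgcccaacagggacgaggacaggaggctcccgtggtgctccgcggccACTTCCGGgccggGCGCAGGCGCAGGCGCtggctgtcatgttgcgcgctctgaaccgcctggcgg

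Mrpl17 has 1 match to the core bound by NRF1 (GCGCA and GCGC with any base between), a regulator of many nuclear genes for mitochondria. Mrpl2 has an E-box (CACGTG), the motif of MYC and its relatives. Mrps27 has an ETS core with flank (CCGGAAGT, here on the other strand), the kind of site that GABP binds, and a YY1 core (the run of capitals nearest the end of its window). Mrps26 has an ETS match followed by 2 NRF1 matches that overlap each other. Windows were found for 69 of the 78 members, 75 windows in all. Searched on both strands, the NRF1 core was in 13 of the 75 (17.3%), against 4.6% of all 32851 windows and 9.44% of the 13690 windows of tested genes. The ETS core was in 12 (16%, against 3.89% of all windows and 7.61% of those of tested genes) and the YY1 core in 5 (6.67%, against 0.852% and 1.88%). The E-box was in 7 (9.33%, against 7.15% and 9.91%). The members' windows also held more G and C, with a median of 58.7% against 52.7% over all windows. By the members' call, the NRF1 core was in 3 of 20 windows of members that rose, 2 of 13 of members that fell and 8 of 42 of the others, the ETS core in 3, 4 and 5 of these, the YY1 core in 1, 0 and 4 and the E-box in 1, 3 and 3. The 3 E-box windows of members that fell are those of Mrpl2, whose nearly coincident starts count the same match 3 times. A match describes the letters only and was not tested as a site.

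Between 24 h and 48 h, 24 members rose, 12 fell and 42 did not pass the test (edgeR's quasi-likelihood test, Benjamini-Hochberg adjusted p under 0.05 over all genes). The changed share, 46.2%, is below the 62.8% of all tested genes. Members that rose made up 30.8% against 30.9% of all genes, and members that fell made up 15.4% against 31.9%. The values at 24 h and at 48 h did not overlap in 39 of 78 members, against 66.9% of all genes. The changes were small. No member changed by 1.5-fold or more, while 21.7% of all tested genes were called past that size, as were 12.9% of the 7066 genes of like abundance (mean of 11.5 to 138.6 CPM, the range of the members without Mrpl23). The median size of the log2 fold change was 0.11 over the members, 0.26 over all genes and 0.20 over genes of like abundance. Of the genes of like abundance, 69.5% were called, 34.6% higher and 34.9% lower. With libraries scaled by total count alone, in place of TMM, 16 members rose and 19 fell. Under that scaling the median over all genes was -0.07 in place of -0.01, and 39.9% of the called genes were higher against 49.2% with TMM. The members' median was 0.06 above that of all genes under both scalings. DESeq2 called 19 members higher and 6 lower, and 53.6% of all genes.

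**Figure D1:**
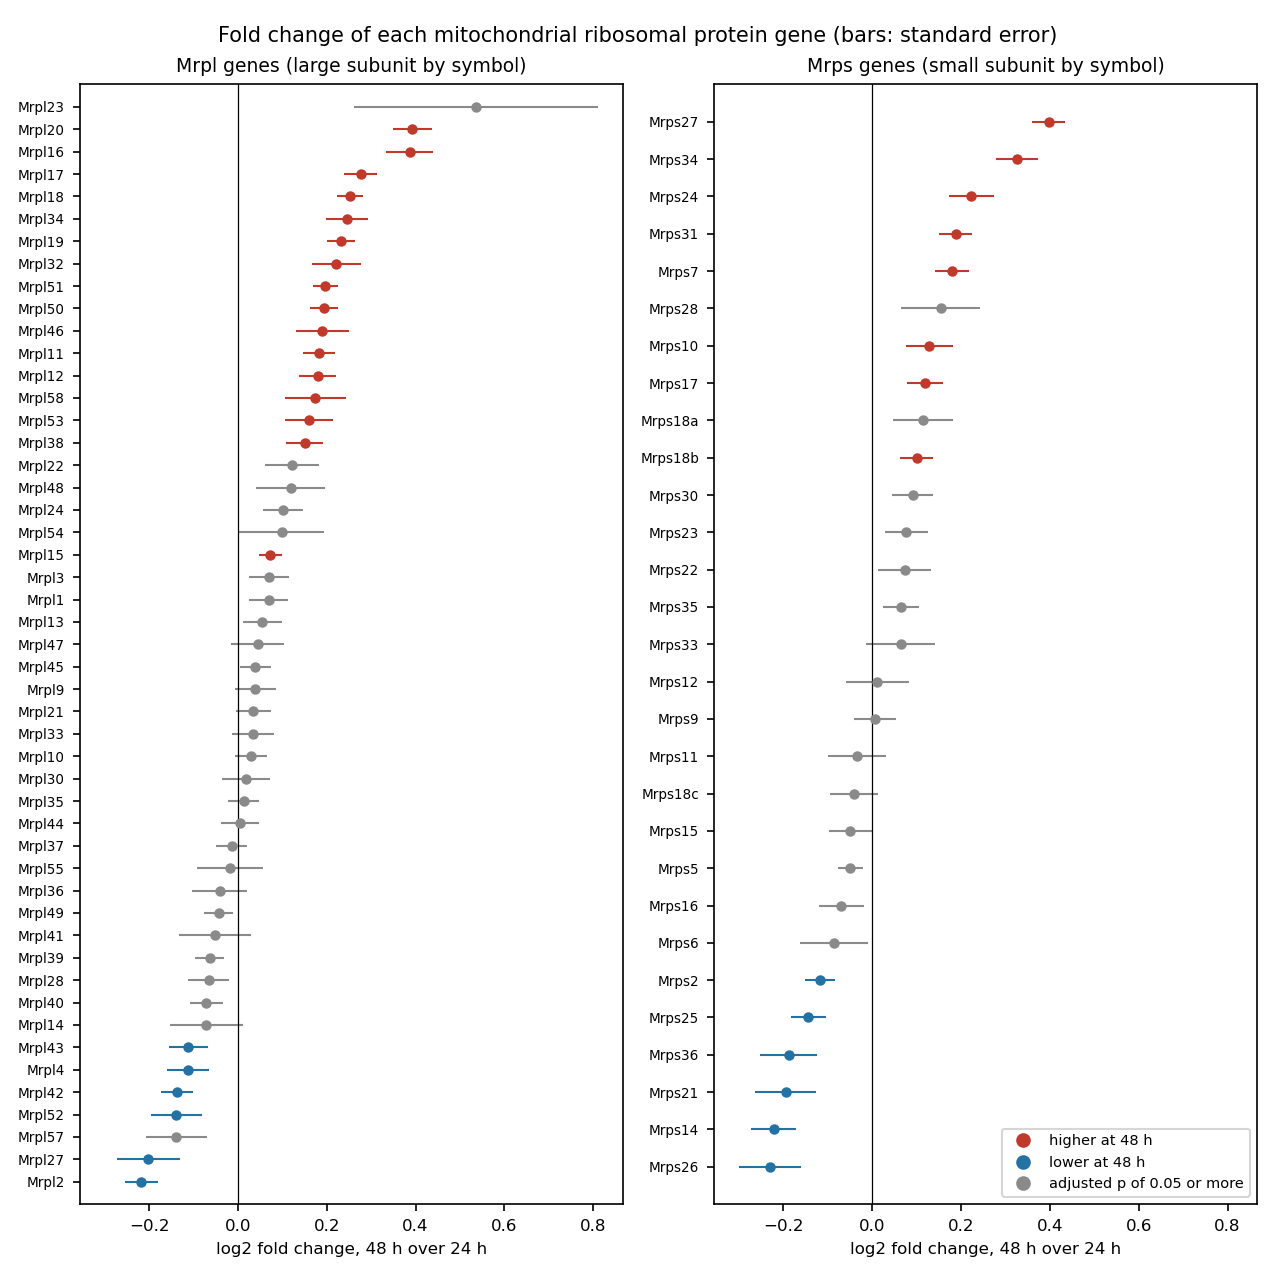
Log2 fold change (48 h over 24 h, horizontal axis) of each Mrpl gene (left) and each Mrps gene (right), with its standard error, ordered by size. Red points rose (16 and 8 genes) and blue points fell (6 and 6 genes) at adjusted p under 0.05; with scaling by total count alone, the large subunit has 11 in each direction and the small subunit 5 and 8.

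The level of the set as a whole moved little. Summed over the 49 large subunit members, the level was 2098, 2133 and 2105 CPM at 24 h and 2229, 2216 and 2230 CPM at 48 h. Summed over the 29 small subunit members, it was 1107, 1119 and 1136 CPM at 24 h and 1166, 1149 and 1158 CPM at 48 h. Both sums were higher in every library at 48 h, by 1.05 times for the large and 1.03 times for the small subunit. Summed over all tested genes on the same scale, the ratio was 1.04. On the log2 scale the differences were 0.08 for the large subunit, 0.05 for the small and 0.06 for all tested genes, and with scaling by total count alone 0.01 and -0.01 for the subunits. As a share of the raw counts, the members held 0.330% ± 0.00238 at 24 h and 0.331% ± 0.00184 at 48 h (SD, n = 3). With 3 libraries against 3, an exact two-sided permutation test of such a sum cannot go below p = 0.1, so none is given.

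**Figure D2:**
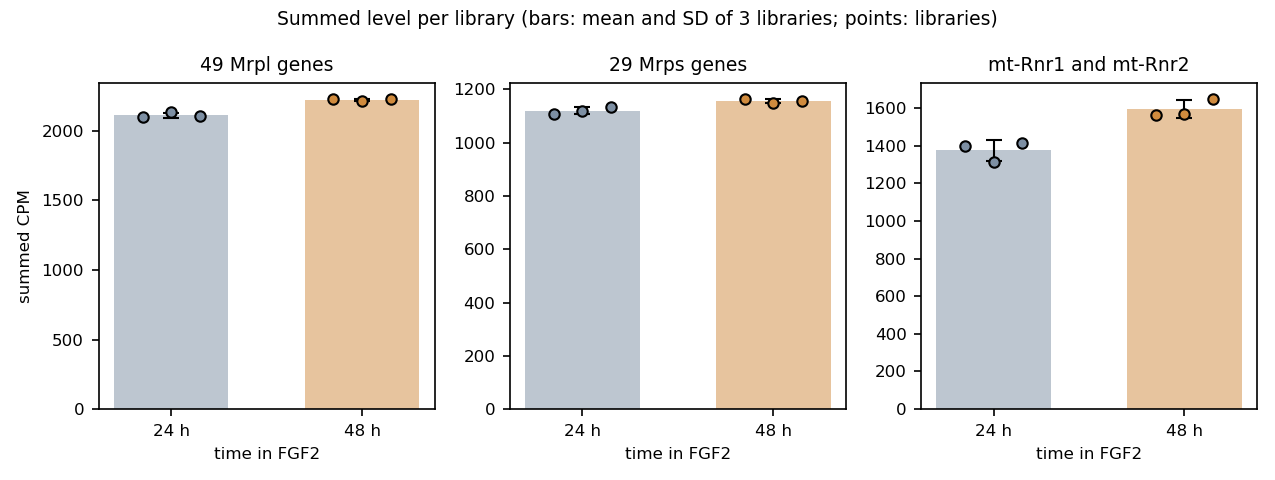
Summed CPM (vertical axis, from 0) of the Mrpl genes, the Mrps genes and the mitochondrial ribosomal RNAs in each library at 24 h and 48 h; bars and error bars are the mean and SD of 3 libraries. The Mrpl sum goes from 2112 to 2225 CPM and the Mrps sum from 1121 to 1158 CPM, and with scaling by total count alone the Mrps sum is lower at 48 h, by -0.01 on the log2 scale; mt-Rnr1 and mt-Rnr2 together go from 1375 to 1594 CPM.

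In the large subunit 16 of 49 members rose, 6 fell and 27 did not pass the test, with a median log2 fold change of 0.04 beside -0.01 over all genes (-0.02 beside -0.07 with scaling by total count alone). In the small subunit 8 of 29 rose, 6 fell and 15 did not pass, with a median of 0.06 (0.0036 with scaling by total count alone). That median was 0.0073 without the first library at 24 h, 0.0296 without the third at 24 h, 0.0417 without the first and 0.0236 without the third at 48 h, and 0.0087 with a correction for GC content and transcript length. The large subunit's median was 0.07 without the second library at 48 h. Its count of members that fell was 2 without the second library at 24 h, 4 without the first at 24 h or the second at 48 h, and 3 without the first or the third at 48 h. The large subunit held 65.3% ± 0.332 of the members' summed CPM at 24 h and 65.8% ± 0.0982 at 48 h (SD, n = 3). Whether the subunits differ in their response was not tested. Sorted by whether the protein holds the place of a bacterial one, 10 of the 30 large subunit proteins with a bacterial counterpart rose and 3 fell, while 6 of the 19 without one rose and 3 fell. In the small subunit 4 of the 16 with a bacterial counterpart rose and 3 fell, and 4 of the 13 without one rose and 3 fell. These 13 include Mrps18a and Mrps18b, relatives of a bacterial protein at places of their own, as well as Mrps30 and Mrps36, the last being 1 of the 3 that fell. With and without a bacterial counterpart, the shares that rose were 33.3% and 31.6% in the large subunit. In the small subunit they were 25% and 30.8%, beside 30.9% of all tested genes. Each share that fell was below the 31.9% of all tested genes. Both kinds of protein were found on both sides in both subunits, and a difference between the kinds was not tested.

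The largest rise in the large subunit was that of Mrpl20 (chromosome 4, 155802878 to 155809975, plus strand, GRCm38), whose bacterial counterpart binds the large ribosomal RNA early in assembly. It stood at 34.7, 37.5 and 35.4 CPM at 24 h and at 47.8, 48.0 and 45.4 CPM at 48 h. Its log2 fold change was 0.39 ± 0.04 (standard error), with an adjusted p of 6.18e-07. Mrpl16, the counterpart of a protein beside the tRNA sites of the bacterial large subunit, stood at 23.8, 25.7 and 23.9 CPM and then at 30.2, 32.5 and 33.2 CPM. The log2 fold change was 0.39 ± 0.05 (adjusted p = 8.69e-06). In both genes the lowest library at 48 h lay well above the highest at 24 h.

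Mrpl17, whose promoter window is shown above and whose protein lies near the exit of the nascent chain, had 70.1, 69.3 and 71.0 CPM at 24 h and 81.6, 90.0 and 83.4 CPM at 48 h. It rose by 0.28 ± 0.04 on the log2 scale (adjusted p = 6.73e-06). Mrpl18, of the central protuberance at the top of the large subunit, had 86.3, 84.8 and 84.2 CPM and then 104, 100 and 100 CPM, a rise of 0.25 ± 0.03 (adjusted p = 1.23e-06). In both genes every library at 48 h was above every library at 24 h. Mrpl34, a very small protein bound to the ribosomal RNA, had 24.3, 24.8 and 24.2 CPM and then 28.86, 29.02 and 29.003 CPM, a rise of 0.25 ± 0.05 (adjusted p = 0.000288). The other 11 large subunit members that rose did so by 0.07 (Mrpl15) to 0.23 (Mrpl19). The call of Mrpl15 was lost in 7 of 18 alternatives, among them without the first or the third library at 24 h (adjusted p = 0.0506 and 0.0710). It was also lost without the first at 48 h (0.0720), with scaling by total count alone (0.685) and with the correction for GC content and transcript length (0.345). Mrpl58, a peptidyl-tRNA hydrolase that frees stalled chains, rose by 0.17 ± 0.07 (adjusted p = 0.0371) with overlapping groups. Its call was lost in 7 of 18 alternatives, among them without the first or the third library at 24 h (0.185 and 0.0537). The same held without the first or the second at 48 h (0.0634 and 0.150), with scaling by total count alone (0.163) and with DESeq2 (0.0827).

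Of the large subunit members that fell, Mrpl2 had the largest change. Its protein is the counterpart of a universal ribosomal protein next to the peptidyl transferase centre. It had 50.8, 52.1 and 52.2 CPM at 24 h and 45.8, 44.2 and 43.4 CPM at 48 h, with no overlap, and fell by 0.22 on the log2 scale (standard error 0.04, adjusted p = 0.000111). Mrpl27, whose bacterial counterpart also reaches toward that centre, had 17.2, 18.1 and 17.6 CPM and then 16.3, 15.4 and 14.3 CPM. It fell by 0.20 (standard error 0.07, adjusted p = 0.0201). That call was lost in 4 of 18 alternatives. They included leaving out the second library at 24 h (adjusted p = 0.0700) or the third at 48 h (0.0913), and DESeq2 (0.0900).

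Mrpl42, a protein found in mitochondria only, had 80.2, 84.9 and 84.3 CPM at 24 h and 72.9, 75.7 and 78.3 CPM at 48 h, and fell by 0.14 (standard error 0.04, adjusted p = 0.00281). Mrpl52, of the same kind, had 24.7, 25.2 and 23.6 CPM and then 21.6, 23.6 and 21.6 CPM, a fall of 0.14 (standard error 0.06, adjusted p = 0.0467). In Mrpl52 the lowest library at 24 h was almost level with the highest at 48 h. Its call was lost in 8 of 18 alternatives, among them without the first or second library at 24 h (adjusted p = 0.0957 and 0.134). The call was also lost without the first or the third at 48 h (0.147 and 0.139) and with DESeq2 (0.183). Mrpl4, whose bacterial counterpart lines the tunnel of the nascent chain, had 39.2, 39.5 and 36.5 CPM and then 34.6, 34.3 and 37.3 CPM. These groups overlap, and the fall of 0.11 (standard error 0.05, adjusted p = 0.0489) lost its call in 12 of 18 alternatives. It no longer passed without the first or second library at 24 h (0.135 and 0.151) or at 48 h (0.153 and 0.180). DESeq2 (0.188) and the correction for GC content and transcript length (0.419) were among the others. The sixth, Mrpl43, fell by 0.11 (standard error 0.04, adjusted p = 0.0368). Mrpl43 lost its call in 9 of 18 alternatives. They included leaving out the second or the third library at 24 h (0.0547 and 0.195) or any 1 library at 48 h (0.0858, 0.110 and 0.0534).

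In the small subunit Mrps27 (chromosome 13, 99344786 to 99415562, plus strand, GRCm38) rose most. It encodes a pentatricopeptide repeat protein, of a family that binds RNA in organelles. It had 54.6, 55.1 and 55.3 CPM at 24 h and 74.7, 68.8 and 74.0 CPM at 48 h, a rise of 0.40 ± 0.04 on the log2 scale (adjusted p = 1.02e-07). Mrps34, a protein without bacterial counterpart, had 28.6, 28.3 and 30.1 CPM and then 37.0, 37.6 and 34.7 CPM, a rise of 0.33 ± 0.05 (adjusted p = 1.68e-05). The groups of both genes lay clearly apart. Mrps34 shares exons with Nme3 on the same strand and had estimated counts that are not whole, so part of its reads were divided between genes.

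Mrps24, the counterpart of a bacterial protein at the entry of the messenger RNA, had 32.2, 35.5 and 34.8 CPM at 24 h and 42.5, 39.4 and 37.9 CPM at 48 h, a rise of 0.22 ± 0.05 (adjusted p = 0.00115). Mrps31, without bacterial counterpart, had 75.5, 69.0 and 69.6 CPM and then 80.3, 83.7 and 79.6 CPM, a rise of 0.19 ± 0.04 (adjusted p = 0.000393). Mrps7, of the head of the small subunit, had 41.4, 43.1 and 43.9 CPM and then 48.4, 48.2 and 48.9 CPM, a rise of 0.18 ± 0.04 (adjusted p = 0.000678). In each of these 3 genes the groups did not overlap. Mrps10 and Mrps17 also rose, by 0.13 ± 0.05 (adjusted p = 0.0446) and 0.12 ± 0.04 (adjusted p = 0.0179). The groups of Mrps10 overlapped, and its call was lost in 11 of 18 alternatives, among them without the second or the third library at 24 h (0.0540 and 0.203) and without the second or the third at 48 h (0.160 and 0.134). Mrps17 lost its call in 6 of 18 alternatives, among them without the first library at 24 h (0.0953) and with scaling by total count alone (0.223). It also did not pass with DESeq2 (0.0802) or with the correction for GC content and transcript length (0.334).

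Mrps26 (chromosome 2, 130563742 to 130568695, plus strand, GRCm38), a protein of the small subunit without bacterial counterpart, had 20.3, 20.8 and 20.3 CPM at 24 h and 19.2, 16.9 and 16.3 CPM at 48 h. It fell by 0.23 (standard error 0.07, adjusted p = 0.00876). Mrps14, counterpart of a bacterial protein of the head, had 41.4, 37.3 and 42.3 CPM and then 33.3, 34.5 and 36.0 CPM, a fall of 0.22 (standard error 0.05, adjusted p = 0.00122). The first library at 48 h was the highest of its group for Mrps26 and the lowest for Mrps14. Mrps25, without bacterial counterpart, had 47.2, 46.5 and 45.3 CPM and then 40.5, 42.7 and 42.4 CPM, a fall of 0.14 (standard error 0.04, adjusted p = 0.00475).

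Mrps21 had 17.1, 19.2 and 19.0 CPM at 24 h and 16.06, 16.32 and 15.97 CPM at 48 h, and fell by 0.20 (standard error 0.07, adjusted p = 0.0206). Its call was lost in 5 of 18 alternatives. They included leaving out the second or the third library at 24 h (adjusted p = 0.0807 and 0.0763) or the third at 48 h (0.0505), and DESeq2 (0.0939). Mrps2 fell by 0.12 (standard error 0.03, adjusted p = 0.00656), and did not pass without the second library at 48 h (0.0535).

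Symbol and place in the ribosome differ for some members. Mrps36 bears a small subunit name but is a subunit of the α-ketoglutarate dehydrogenase complex of the citric acid cycle, and it is not part of the mitoribosome structure. It had 21.1, 22.4 and 21.9 CPM at 24 h and 17.81, 19.88 and 19.62 CPM at 48 h, a fall of 0.19 (standard error 0.06, adjusted p = 0.0159). The call was lost in 4 of 18 alternatives. They included leaving out the second library at 24 h (0.0548) or the first at 48 h (0.0875), and DESeq2 (0.0785). Mrps30 and Mrps18a lie in the large subunit in the structure. Mrps30 had 46.8, 49.8 and 53.4 CPM and then 51.8, 55.1 and 53.2 CPM, with overlapping groups and a log2 fold change of 0.09 ± 0.05 that did not pass (adjusted p = 0.0968), except without the third library at 24 h (0.14, adjusted p = 0.0146).

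Mrps18a, Mrps18b and Mrps18c are paralogs descended from 1 bacterial small subunit protein, and each ribosome holds all 3 at different places. Mrps18a had 18.5, 20.7 and 20.4 CPM at 24 h and 20.1, 22.9 and 21.6 CPM at 48 h, and a fold change of 0.12 ± 0.07 on the log2 scale (adjusted p = 0.148). It passed only with the correction for GC content and transcript length together with a term for the replicate number (0.15, adjusted p = 0.0458). Mrps18b had 58.6, 62.8 and 63.3 CPM and then 66.0, 64.7 and 67.6 CPM, a rise of 0.10 ± 0.04 (adjusted p = 0.0286). The rise of Mrps18b lost its call in 6 of 18 alternatives, among them without the first library at 24 h (adjusted p = 0.157). It also did not pass without the first or the third at 48 h (0.0529 and 0.104), with DESeq2 (0.0733) or with scaling by total count alone (0.04, adjusted p = 0.369). Mrps18c, which holds the place of the bacterial protein, had 26.7, 27.8 and 29.3 CPM and then 26.3, 28.4 and 26.9 CPM, and a fold change of -0.04 ± 0.05 on the log2 scale (adjusted p = 0.524). Of these paralogs 1 of 3 passed the test, and a difference between them was not tested. Sorted by the structure instead of the symbol, with 5 subunits of other names added, the large subunit had 16 that rose and 6 that fell of 52, and the small subunit 10 and 6 of 30. These were 30.8% and 11.5% of the large and 33.3% and 20% of the small subunit. Of all tested genes, 30.9% rose and 31.9% fell.

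**Figure D3:**
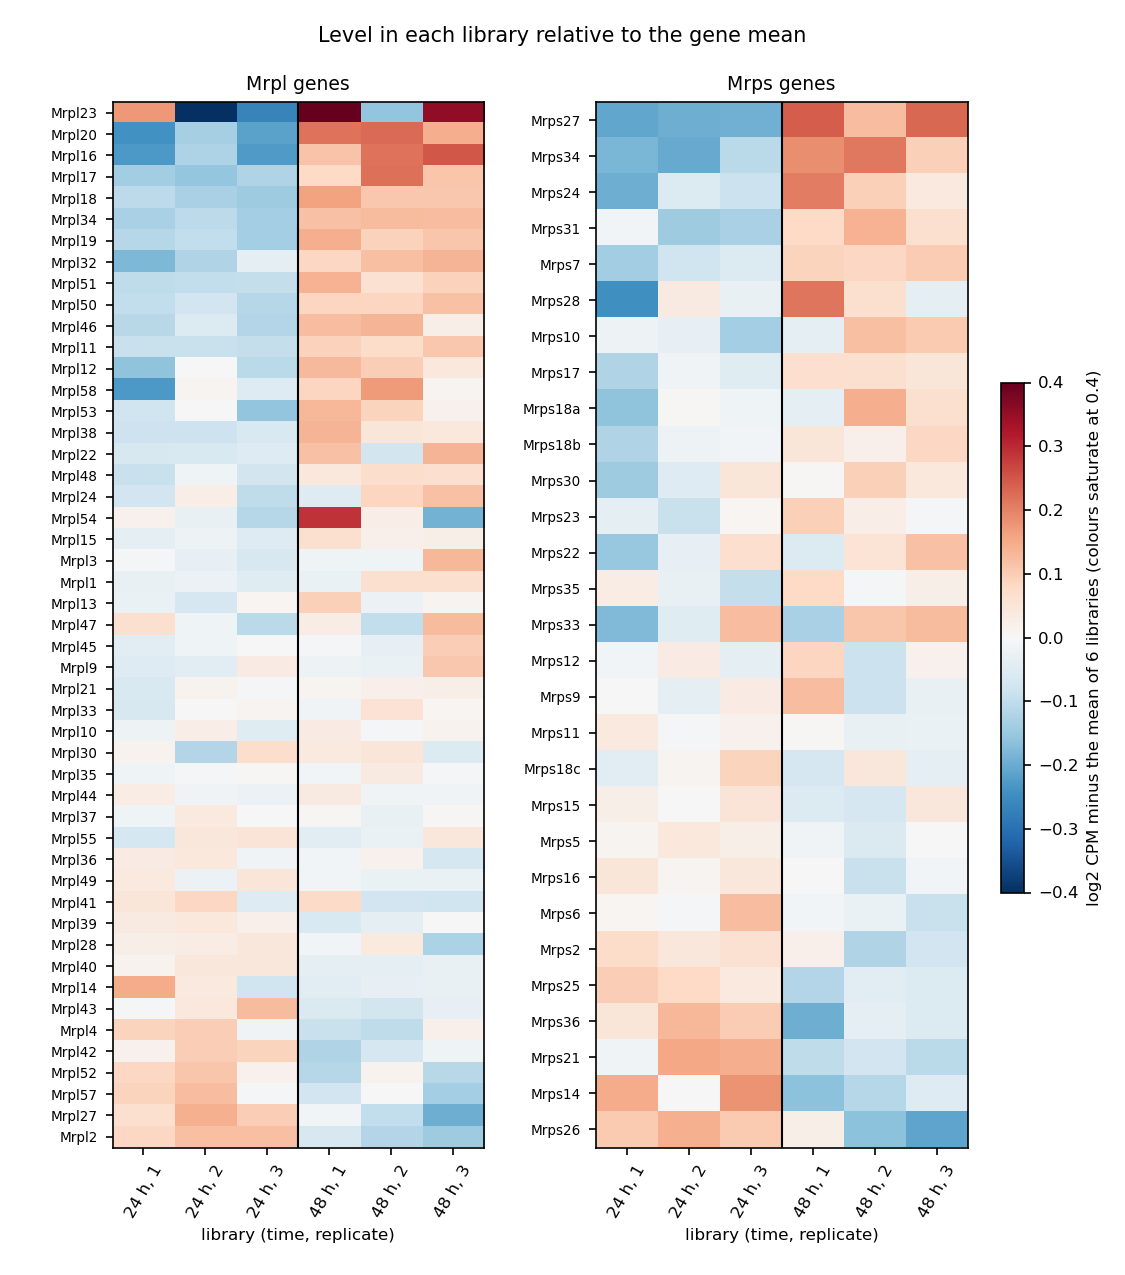
Level of each Mrpl gene (left) and each Mrps gene (right) in the 6 libraries, as log2 CPM minus the gene's mean over all libraries (red above, blue below, colours saturating at 0.4), ordered by fold change. The rows at the top and the bottom change colour at the line between 24 h and 48 h, while most rows in the middle, such as Mrpl44 with a log2 fold change of 0.0051, do not; row order is by the tested contrast, and with scaling by total count alone 12 members near 0 take the other sign.

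The members scattered little within a group. The median coefficient of variation over the members was 2.85% at 24 h and 3.58% at 48 h, and the highest was that of Mrpl23 at both times (30.8% and 26.1%). Over the 78 members alone, the first principal component of log2 CPM held 63.9% of the variance and had all libraries at 24 h on one side and all at 48 h on the other. Of all tested genes, 66.9% had no overlap between the times, so such a split need not be particular to the members. Of the 42 members that did not pass the test, 35 had a 95% interval of the log2 fold change within 0.25 on both sides of 0. For Mrpl22, Mrpl23, Mrpl48, Mrpl54, Mrpl57, Mrps18a and Mrps28, a larger change could not be told from none. Per kilobase of a representative transcript, the mean level over the 6 libraries had a median of 28.7 CPM per kilobase in the large and 23.3 in the small subunit, and 59 of 78 members lay between 10 and 50. Mrpl42 was the highest at 119 CPM per kilobase, followed by Mrpl18 at 76.5. The counts of Mrpl42 were not whole, so part of its reads were divided between genes.

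Sites within the ribosome gave small groups. Of all tested genes, 30.9% rose and 31.9% fell. Shares that rose were 66.7% of 3 members at the stalk and its base and 16.7% of 6 at the exit of the nascent chain. In the central protuberance 42.9% of 7 rose and 14.3% fell. Differences between sites were not tested. At the stalk and its base, where translation factors dock, Mrpl11 (0.18 ± 0.04, adjusted p = 0.000363) and Mrpl12 (0.18 ± 0.04, adjusted p = 0.00119) rose, while Mrpl10, which joins them, had a log2 fold change of 0.03 ± 0.04 (adjusted p = 0.509; -0.03 with scaling by total count alone). Around the exit of the nascent chain Mrpl17 passed and the other 5 members did not. The others there were Mrpl22 at 0.12 ± 0.06, Mrpl23 at 0.54 ± 0.27, Mrpl24 at 0.10 ± 0.05, Mrpl45, which anchors the ribosome at the inner membrane, at 0.04 ± 0.03, and Mrpl47 at 0.04 ± 0.06, and the last 2 turned to -0.02 with scaling by total count alone. Mrpl24 (adjusted p = 0.0585) gained a call in 6 of 18 alternatives, among them without the second library at 24 h (0.0197) and without the first at 48 h (0.00544). Mrpl22 gained one without the second library at 48 h (0.0124), and Mrpl23 without the first at 24 h (0.0410) or the second at 48 h (0.0390). In the central protuberance Mrpl18, Mrpl46 (0.19 ± 0.06, adjusted p = 0.0110) and Mrpl38 (0.15 ± 0.04, adjusted p = 0.00513) rose, Mrpl27 fell, and Mrpl40, Mrpl48 and Mrpl55 did not pass. With scaling by total count alone neither Mrpl46 (adjusted p = 0.0709) nor Mrpl38 (0.0740) passed, while Mrpl40 passed as lower (-0.13, adjusted p = 0.00604). Mrpl46 and Mrps11 lie head to head on chromosome 7 with overlapping exons (78775236 to 78783531 on the minus strand and 78783119 to 78792989 on the plus strand, GRCm38). Mrps11, the partner, had a log2 fold change of -0.03 ± 0.06 (adjusted p = 0.666). In all, 28 members overlap exons of a gene on the other strand and 8 those of a gene on the same strand, and whether the counting used strand is not given in the sources used here.

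Mrpl23 and Mrpl48 share reads with pseudogene copies. Mrpl23 had 1.55, 0.830 and 1.14 CPM at 24 h and 2.12, 1.23 and 1.76 CPM at 48 h, with overlapping groups and an adjusted p of 0.0999, although its log2 fold change of 0.54 is the largest of all members. Its pseudogene Mrpl23-ps1 was assigned most of the pair's reads, and Mrpl23 itself held 5.11% to 10.9% of them. Summed over the pair, the level was 17.5 ± 1.22 CPM at 24 h and 17.7 ± 1.38 CPM at 48 h (SD, n = 3), so the estimate for Mrpl23 alone is uncertain. Mrpl48 held 72.8% to 79.5% of the summed estimated counts of itself and Mrpl48-ps, and that pair summed to 14.3 ± 0.535 and 15.9 ± 0.558 CPM. Counts were whole numbers in every library in 62 members. Among these 62 alone, 20 rose and 9 fell (32.3% and 14.5%, against 30.9% and 31.9% of all tested genes). Called members outside them were Mrpl51, Mrpl53, Mrps18b and Mrps34, which rose, and Mrpl27, Mrpl42 and Mrps36, which fell.

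The other parts of the mitochondrial ribosome moved in both directions too. Of the 5 structural subunits without an Mrp symbol, Chchd1 went from 33.8 ± 1.89 to 42.3 ± 0.599 CPM (log2 fold change 0.32 ± 0.05) and Ptcd3, a pentatricopeptide repeat protein at the entry of the messenger RNA, from 248 ± 2.94 to 297 ± 2.18 CPM (0.26 ± 0.02), and both rose. Dap3, a GTP-binding protein of the small subunit, went from 83.7 ± 0.629 to 72.1 ± 1.26 CPM and fell by 0.22. Aurkaip1 and Gadd45gip1 did not pass, at -0.03 ± 0.04 and -0.09 ± 0.04. Of these 5 subunits 40% rose and 20% fell, against 30.9% and 31.9% of all tested genes. Both ribosomal RNAs rose: mt-Rnr1 went from 214 ± 6.99 to 267 ± 13.0 CPM (0.32 ± 0.03) and mt-Rnr2 from 1161 ± 49.2 to 1327 ± 36.5 CPM (0.19 ± 0.03). These libraries were made with a kit for messenger RNA, so the level of these RNAs is not that of the whole pool. The share of all counts on the mitochondrial genome went the other way, from 3.13% ± 0.0585 to 2.84% ± 0.0946.

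Of 24 assembly factors, 4 rose (16.7%), 5 fell (20.8%) and 15 did not pass, while 30.9% of all tested genes rose and 31.9% fell. Fastkd2, which binds the large ribosomal RNA, went from 57.7 ± 0.906 to 78.9 ± 3.21 CPM (log2 fold change 0.45 ± 0.04), and the GTPase Gtpbp10 from 57.6 ± 1.33 to 76.1 ± 1.65 CPM (0.40 ± 0.03). Rpusd4 and Dhx30 rose by 0.25 ± 0.05 and 0.19 ± 0.03. In the other direction Rbfa, which acts on the small subunit, went from 39.7 ± 1.22 to 26.6 ± 2.09 CPM and fell by 0.58, the RNA methyltransferase Mrm2 from 14.2 ± 0.278 to 9.90 ± 0.581 CPM and fell by 0.52, and Rpusd3, Nsun4 and Ddx28 fell by 0.28, 0.24 and 0.20. The largest changes among assembly factors were larger than that of any of the 78 members that passed the test. None of the 24 changed by 1.5-fold or more.

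Of 16 translation factors, 4 rose (25%, against 30.9% of all tested genes) and 5 fell (31.25%, against 31.9%). Gfm2, a factor of ribosome recycling, rose by 0.35 ± 0.03, the recycling factor Mrrf by 0.25 ± 0.08, the elongation factor Gfm1 by 0.17 ± 0.03 and Lrpprc, which stabilises mitochondrial messenger RNAs, by 0.09 ± 0.02. Oxa1l, which inserts new proteins into the inner membrane, fell by 0.36, the initiation factor Mtif3 by 0.35, Mpv17l2 by 0.30, and the elongation factors Tsfm and Tufm by 0.18 and 0.15. Both recycling factors named here rose, and elongation factors were found on both sides. Of 20 mitochondrial aminoacyl-tRNA synthetases and amidotransferase subunits, 5 rose (up to 0.40 ± 0.05 for Yars2) and 4 fell (by up to 0.39 for Aars2). These made up 25% and 20% of that list.

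Of the 15 tested genes for expression and upkeep of mitochondrial DNA, 10 rose, 2 fell and 3 did not pass, and the median log2 fold change was 0.13. The shares were 66.7% higher and 13.3% lower, against 30.9% and 31.9% of all tested genes. The RNA-processing nuclease Elac2 rose by 0.42 ± 0.03 and the transcription elongation factor Tefm by 0.31 ± 0.08, while the RNA polymerase Polrmt fell by 0.23 and Hsd17b10, a subunit of the tRNA-processing complex, by 0.44. Of the 13 messenger RNAs of the mitochondrial genome, which this ribosome translates, 1 rose (mt-Nd2, 0.10 ± 0.02), 5 fell and 7 did not pass. Their shares were 7.69% higher and 38.5% lower. The 3 largest falls, those of mt-Co2, mt-Atp6 and mt-Co1 (0.72, 0.67 and 0.20), are in genes with estimated counts that are not whole. Of 9 tested regulators of nuclear genes for mitochondria, 6 rose (66.7%), 1 fell (11.1%) and 2 did not pass. Mycn went from 122 ± 2.64 to 295 ± 10.5 CPM and Myc from 19.8 ± 0.550 to 30.5 ± 0.894 CPM (log2 fold changes 1.27 ± 0.03 and 0.62 ± 0.05), the only 2 genes of that list past 1.5-fold. Nrf1 rose by 0.11 ± 0.03 and Yy1 by 0.16 ± 0.03, and of the subunits of GABP, Gabpb1 rose by 0.20 ± 0.04 and Gabpa fell by 0.23.

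**Figure D4:**
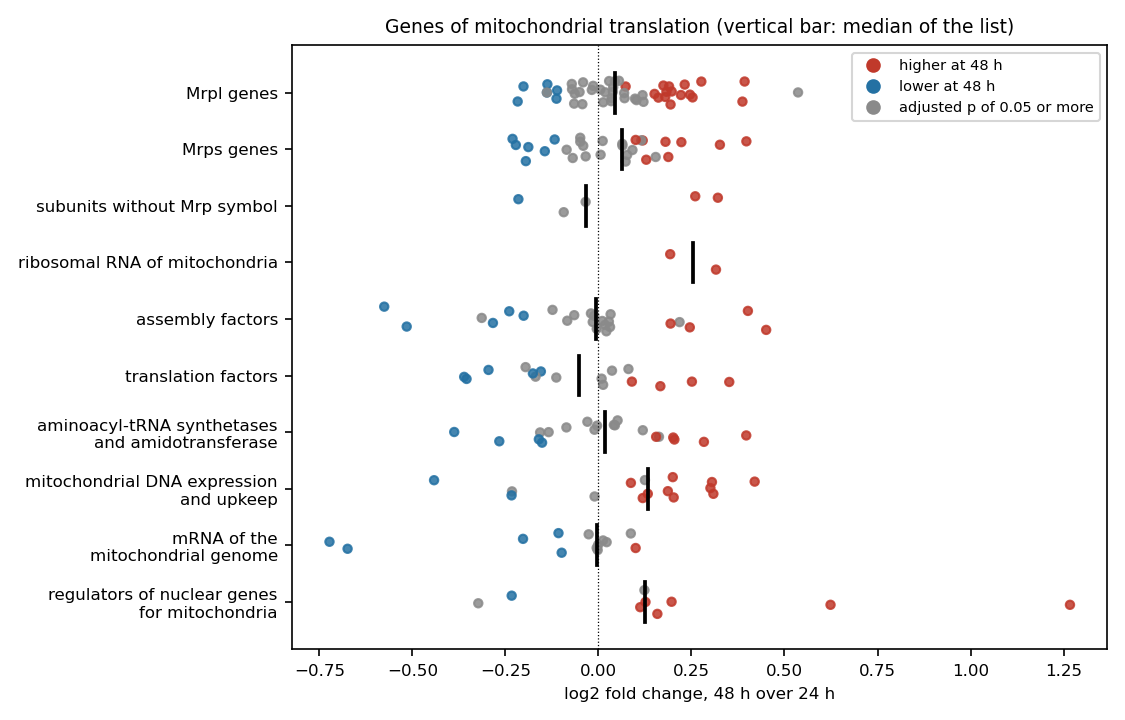
Log2 fold change (48 h over 24 h, horizontal axis) of each tested gene in the Mrpl and Mrps sets and in 8 further lists of mitochondrial gene expression; red rose, blue fell, grey did not pass, and the bar is the list's median. The Mrpl and Mrps points lie between -0.23 and 0.54, with medians of 0.04 and 0.06 (-0.02 and 0.0036 with scaling by total count alone, beside -0.07 over all genes).

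Beside the proteins of the cytosolic ribosome and of the complexes that the mitochondrial ribosome serves, the 3 sets gave different counts. Of 88 tested cytosolic ribosomal protein genes, 19 rose and 35 fell, and their median was -0.02 on the log2 scale. Of 90 tested nuclear genes of oxidative phosphorylation, 3 rose and 62 fell, with a median of -0.17. The members stood at 24 and 12 of 78 with a median of 0.05. In this order the shares that rose were 21.6%, 3.33% and 30.8%, and those that fell were 39.8%, 68.9% and 15.4%. Of all tested genes 30.9% rose and 31.9% fell, with a median of -0.01. A difference between the sets was not tested.

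**Figure D5:**
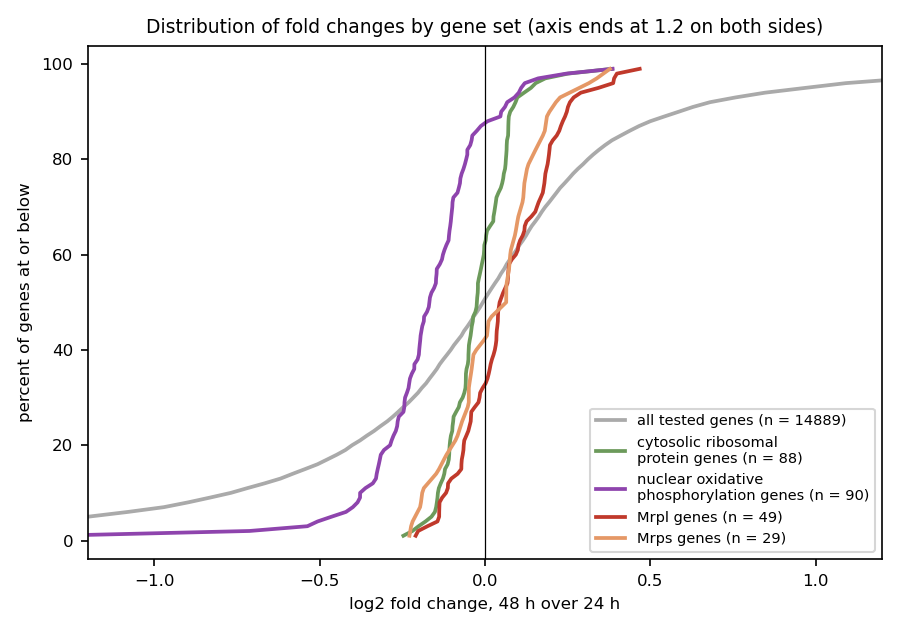
Percent of genes (vertical axis) with a log2 fold change at or below the value on the horizontal axis, for the Mrpl and Mrps genes, the cytosolic ribosomal protein genes, the nuclear oxidative phosphorylation genes and all tested genes. The curves of the mitochondrial and cytosolic ribosomal genes are steep around 0 (median size 0.11 for the members), and that of all genes is flatter (0.26); the curve of the oxidative phosphorylation genes crosses 50 percent at -0.17 and those of the Mrpl and Mrps genes at 0.04 and 0.06 (-0.02 and 0.0036 with scaling by total count alone, beside -0.07 over all genes).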

How the data were processed

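Messenger RNA was sequenced in 6 libraries, 3 at each time. The values deposited by the authors are estimated counts of each gene, not scaled for depth or length. Per the submitters' processing notes, RSEM 1.3.0, STAR 2.5.2, cutadapt 1.9.1 and the GRCm38 build were used; their settings, strandedness, gene annotation and filters are not given in the sources used here. RSEM divides reads that fit several genes, so counts need not be whole. Every column name matched 1 sample title, and 0 columns were left over. Symbols came from GENCODE M21, which matched 51633 of 51912 identifiers.

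Estimated counts were rounded, genes kept by filterByExpr (minimum count of 10), libraries scaled by TMM and times compared with edgeR 4.0.16 (glmQLFit, glmQLFTest, R 4.3.3), with time as the only term and Benjamini-Hochberg adjustment over 14889 genes. The fit was tested on simulated data. Fold changes are log2, 48 h over 24 h. Library totals of 19574969 to 23133148 counts set the precision. Alternatives were other scalings and filters, DESeq2 1.42.0, limma 3.58.1 (voom), unrounded counts, a replicate block, a threshold of 0.01, each library left out and, added after the data were seen, a correction for GC content and transcript length. Replicate pairs differed by more than sampling noise, so all 6 libraries were counted. Named with a value in every library were, per subunit and direction, the 5 called members with the largest change at 5 CPM or more, and the S18 paralogs, Mrps30 and Mrps36. The oxidative phosphorylation list also leaves out symbols ending in os. Prorp was not matched. The members and lists were chosen with earlier results of these data known. Promoter windows are from RefSeq (GRCm38.p6).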

Additional observations from a re-analysis of the deposited data

How the results depend on the processing

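Over 18 alternatives for single members, 15 of the 24 that rose (10 large, 5 small) and 5 of the 12 that fell (2 large, 3 small) kept their call in every alternative, and 0 switched from one direction to the other. Counting every member in every alternative, direction and call were as reported in 1244 cases, the call was lost in 90 and gained in 24, and the sign differed in 46. The sign changes were in 18 members, none of which had passed the test.

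Scaling by total count alone, under which the median of all genes was -0.07 in place of -0.01, gave 11 large subunit members lower and 5 small subunit members higher, medians of -0.0162 (large) and 0.0036 (small), and summed log2 ratios of 0.0148 (large) and -0.0134 (small). DESeq2 gave 2 large lower and 5 small higher, as did an adjusted p under 0.01. The GC content and transcript length offset moved the small median to 0.0087, and to 0.0121 with the replicate block. Sorting by structure gave a small median of 0.0377 and a small summed ratio of 0.077. The causes of these shifts were not tested. Leaving out 1 library at a time gave 13 to 17 large members higher, 2 to 5 lower and a large median of 0.0408 to 0.0679; large members lower were 2 without the second library at 24 h, 3 without the first and 3 without the third at 48 h. For the small subunit it gave 6 to 8 higher, 4 to 6 lower, a median of 0.0073 (without the first library at 24 h) to 0.0582, with 0.0296 without the third at 24 h, 0.0417 without the first and 0.0236 without the third at 48 h. Summed ratios stayed at 0.0686 to 0.0813 (large) and 0.0366 to 0.0548 (small).

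Same-numbered replicates did not deviate together (correlations of -0.05, -0.04 and -0.01). Such correlations cannot tell whether same-numbered libraries came from the same culture or batch, which the labels do not say. With the replicate block 24 members rose and 11 fell, 17 and 5 in the large and 7 and 6 in the small subunit, and 9235 genes were called. No library correlated best with its own number.

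Members that had not passed and changed sign were, with scaling by total count alone, Mrpl10 (-0.0317), Mrpl45 (-0.0209), Mrpl13 (-0.0052), Mrpl21 (-0.0253), Mrpl30 (-0.0419), Mrpl44 (-0.0553), Mrpl9 (-0.0217), Mrpl47 (-0.0162), Mrps12 (-0.049), Mrpl35 (-0.0476), Mrps9 (-0.0545) and Mrpl33 (-0.0262). With the GC and length offset, and with the block added, they were Mrpl30 (-0.011, -0.0102), Mrpl37 (0.0454, 0.0455), Mrpl1 (-0.0435, -0.0434), Mrps33 (-0.0256, -0.0213), Mrps11 (0.0049, 0.0047), Mrpl47 (-0.0139, -0.0144), Mrpl35 (-0.0701, -0.0701), Mrps9 (-0.0005, -0.0017) and Mrpl33 (-0.0532, -0.0528). With each library left out in turn, the members that crossed 0 ranged as follows: Mrpl30 (-0.033 to 0.0613), Mrpl44 (-0.0093 to 0.0194), Mrpl9 (-0.0049 to 0.066), Mrpl37 (-0.0273 to 0.0013), Mrps33 (-0.0048 to 0.1491), Mrpl54 (-0.032 to 0.2082), Mrpl55 (-0.057 to 0.0029), Mrpl47 (-0.0103 to 0.1038), Mrps12 (-0.0272 to 0.0582) and Mrps9 (-0.054 to 0.0518).

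Mrpl23 had the lowest counts, from 17.39 to 45.66 per library, while it also shares reads with its pseudogene, and those of Mrpl48 ran from 215.48 to 265.86. For Mrpl23 the 95% interval of the log2 fold change runs from -0.05 to 1.12. The intervals cover the spread between these 3 libraries per time only.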
